A study of Mus musculus x Rattus norvegicus with 2 samples.

Results

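The 10 genes described here are capillary endothelial genes: Car4, Prx, Gpihbp1, Plvap, Tmem100, Ly6c1, Ly6a, Fabp4, Cd36 and Cd93. They were chosen by symbol from 80802 mouse and rat features, with earlier results of these data known. All 10 had 1 mouse feature among 55403. Of the 25399 rat features, 5 carried one of these symbols (Prx, Gpihbp1, Plvap, Tmem100 and Fabp4). The genes were read in mouse endothelial barcodes, which are droplet barcodes with at least 4 unique molecular identifiers (UMIs) of Cdh5, Pecam1 and Cldn5 together. These numbered 2117 of 8990 kept barcodes in the mutant library and 1324 of 9021 in the control library.

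Both libraries were 10x 3' v3 libraries of lung, taken at E20.5 from mouse-rat chimeras made with C57BL/6 mouse and SD rat. The mutant library came from a mouse lung grown in an Nkx2-1-/- rat host, which lacks the transcription factor that lung epithelium needs to form. The control library was of a chimeric lung in a wild-type rat host. There was 1 library per group, the number of embryos behind each is not given in the sources used here, and no difference between the libraries has a replicate check. Intervals below therefore cover counting error only. They are 95% exact Poisson intervals for levels, exact binomial intervals for shares of barcodes, and exact conditional intervals for folds. Those for levels and folds treat UMIs as independent and do not cover their spread between barcodes.

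The capillary bed of the lung carries gas exchange and holds a pair of endothelial cell types in the mouse. Aerocytes are large, thin cells that face the air spaces and express Car4 and Ednrb, and general capillary cells express Gpihbp1, Plvap and Aplnr and act as progenitors of both. Capillary endothelium also takes up fatty acids from circulating lipoproteins, through GPIHBP1, CD36 and the fatty acid binding proteins.

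The mutant library held 103627303 UMIs and the control library 123047433. Median mouse UMIs per mouse endothelial barcode were 8239 in the mutant library and 6306.5 in the control library. Rat Nkx2-1, the gene deleted in the host, had 1 UMI in the mutant library and 5103 UMIs in the control library. All rat features together had 1856112 UMIs in the mutant library and 18910529 in the control library. The summed level of each gate gene was within 2-fold between the libraries, before the adjustment for intron length given below. Cdh5 had 1136 UMIs per 1000000 mouse UMIs (CPM) in the mutant library and 980.1 in the control library, Pecam1 had 1081 and 599, and Cldn5 had 1570 and 1044, in the same order of libraries. Of 20 other endothelial genes, 4 were at least 2-fold higher in the mutant library (Calcrl, Flt1, Erg and Ptprb) and none was lower. Markers of other classes were present in the endothelial barcodes. The summed epithelial markers (8 of 8 detected) had 6458 CPM in the mutant library and 9912 in the control library, and the mesenchymal markers (8 of 8) had 733 and 505 CPM. Immune markers (8 of 8) had 42.5 and 44.2 CPM, and red cell markers (6 of 6) had 3238 and 4027 CPM. Among endothelial barcodes, 10.3% in the mutant library and 10.95% in the control library also passed a 4-UMI gate of another class. Without them, the numbers of capillary genes past 2-fold given below were the same. A barcode sequence was present in both libraries 47 times, and 2 of these were endothelial in both.

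Differences are given on the log2 scale after adding 10 CPM to both libraries, which understates those of low genes, and 2-fold means 1 on that scale. Of the 10 capillary genes, 8 were at least 2-fold higher in mutant than in control endothelial barcodes, none was at least 2-fold lower, and 2 (Plvap and Cd93) lay within 2-fold. Among all 9870 genes with at least 10 CPM in either library, 12.3% were at least 2-fold higher and 4.48% at least 2-fold lower. The log2 difference had a median of 1.92 over the 10 genes and of -0.06 over all genes. Long-intron genes were higher in the mutant library as a class. Genes whose introns sum to at most 2 kb had a median log2 difference of -0.46, and those with over 200 kb one of 1.45. The mutant matrix was made with a later Cell Ranger version, and whether intronic reads were counted in either file is not given in the sources used here. Measured against genes with introns of similar length, the same 8 genes were at least 2-fold higher, with a median of 2.23. That relative limit was passed by 5.4% of genes on the higher side and 2.99% on the lower side. Only Cd36 among the 10 has introns of over 20 kb in total (103.52 kb), and its log2 difference was 2.81, or 1.92 relative to genes of like intron length. When the libraries were scaled to the UMIs of genes with at most 10 kb of intron instead, the median of all genes moved to 0.18, and 18.1% of genes were higher and 2.47% lower. Against that scale the 8 genes again passed the limit. Of the 20 other endothelial genes above, 2 were at least 2-fold higher relative to genes of like intron length, Calcrl (1.82) and S1pr1 (1.01), while Flt1 (0.36), Erg (-0.22) and Ptprb (0.33) were not. Among the gate genes, Cldn5 (1.05) also passed that relative limit, while Cdh5 (0.18) and Pecam1 (0.40) did not.

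**Figure D1:**
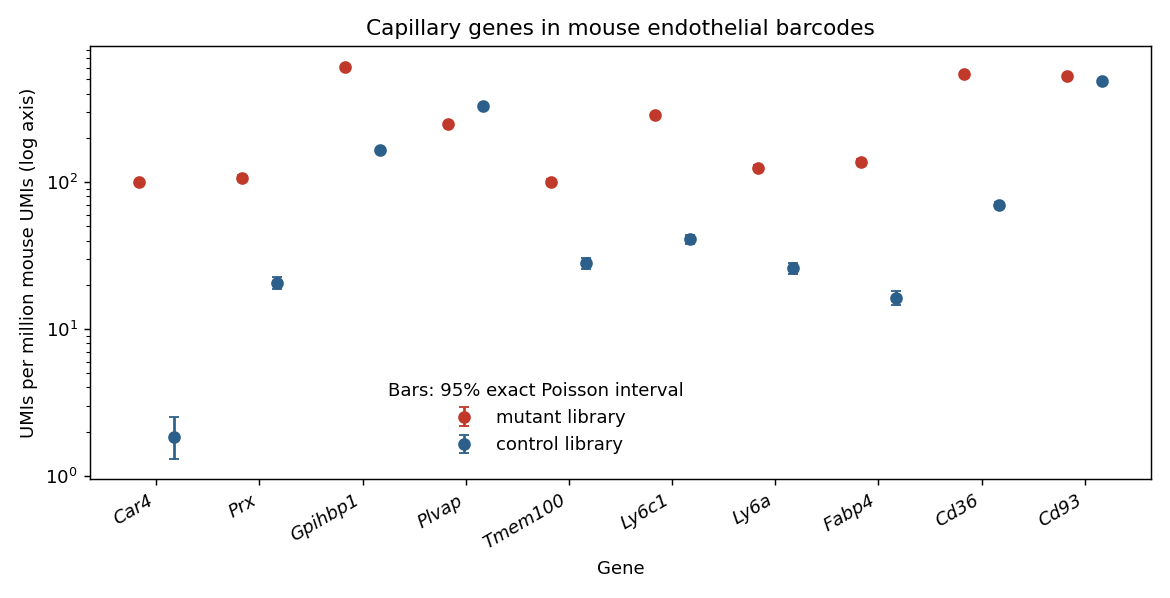
Level of each of the 10 genes in mouse endothelial barcodes, in CPM on a log axis, for the mutant library (red, left of each pair) and the control library (blue, right), with 95% exact Poisson intervals. The mutant library is higher for 8 genes, by the widest margin for Car4 (99.5 against 1.84 CPM), while Plvap and Cd93 are within 2-fold.

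Car4 encodes a carbonic anhydrase anchored to the luminal face of capillary endothelium. It is on chr11:84957786-84966044 (mm10, plus strand) in the GENCODE vM21 annotation, like the positions below. Car4 had 2063 UMIs (99.5 CPM) in mutant endothelial barcodes and 38 UMIs (1.84 CPM) in control endothelial barcodes. This is a 54.1-fold higher level in the mutant library, with an interval of 39.3 to 76.7. A Car4 UMI was found in 21.6% of mutant endothelial barcodes (457 barcodes) and in 2.19% of control ones. After thinning every barcode to 2000 mouse UMIs, which equalises depth and leaves 2043 mutant and 1162 control barcodes, the shares were 13.1% in the mutant library and 0.430% in the control library. In epithelial barcodes, which served as the background for free RNA (median 14210 mouse UMIs in the mutant library and 14294 in the control library), thinned shares were 0.123% in the mutant library and 0 in the control library. In control mouse barcodes Car4 had 70 UMIs in all, of which endothelial barcodes held 54.3%. The 138 control immune barcodes held 22 more, so that Car4 had 1.84 CPM in control endothelial barcodes and 11.4 CPM in control immune ones. In the mutant library, endothelial barcodes held 98.0% of all 2105 Car4 UMIs.

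Prx encodes periaxin, a PDZ protein best known from myelinating Schwann cells that also marks lung capillary endothelium in the mouse (chr7:27499324-27520214, plus strand). Prx had 2208 UMIs (107 CPM) in mutant endothelial barcodes and 427 UMIs (20.7 CPM) in control ones, a fold of 5.16 (interval 4.65 to 5.73). Thinned shares were 18.6% in the mutant library and 5.59% in the control library, and 40.7% and 20.2% unthinned. In epithelial barcodes of the same libraries the thinned shares were 1.05% and 0.960%. An antisense gene, Gm15541, lies inside Prx, upstream of its 3' end, and whether strand was used in counting is not given in the sources used here. Reads within their overlap are uncertain if it was not.

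Plvap encodes the protein of the diaphragms that span endothelial caveolae and fenestrae (chr8:71497765-71511752, minus strand, its 3' end overlapping Gtpbp3 on the other strand). As for Prx, reads within that overlap are uncertain if strand was not used in counting. Of the 10 genes, only Plvap had a lower level in the mutant library. Plvap had 5159 UMIs (249 CPM) in mutant endothelial barcodes and 6781 UMIs (328 CPM) in control ones, a fold of 0.759 (interval 0.732 to 0.787). Its log2 difference was -0.38, and it stayed below 0 and short of 2-fold in every one of 16 settings tried (-0.61 to -0.13). After thinning, Plvap was detected in 35.7% of mutant and 48.6% of control endothelial barcodes (67.0% and 74.8% unthinned), and in 0.431% and 0.720% of the epithelial barcodes of those libraries. Of 8 measured genes of caveolae and their coats, none passed 2-fold in either direction, with a median log2 difference of -0.01. Cav1, the main caveolar coat protein, had 914 CPM in the mutant library and 864 CPM in the control library, and Cav2 had 186 and 105 CPM. Relative to genes of like intron length, the log2 difference of Cav2 was 1.23, so it passed the limit there.

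Gpihbp1 encodes the protein that binds lipoprotein lipase and carries it to the capillary lumen (chr15:75596628-75599481, plus strand). It had 12663 UMIs (611 CPM) in mutant endothelial barcodes and 3427 UMIs (166 CPM) in control ones, a fold of 3.68 (interval 3.55 to 3.83). Thinned shares were 62.4% in the mutant library and 29.3% in the control library (85.0% and 56.7% unthinned), and 0.493% and 0.360% in epithelial barcodes. In both libraries it was nearly confined to endothelium, which held 98.1% of its mouse UMIs in the mutant library and 94.6% in the control library.

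Cd36 encodes a scavenger receptor that takes up long-chain fatty acids (chr5:17781690-17888801, minus strand). Its levels were 548 CPM (11370 UMIs) in mutant endothelial barcodes and 69.7 CPM (1441 UMIs) in control ones, a fold of 7.87 (interval 7.45 to 8.32). The gene was not restricted to endothelium. Mutant epithelial barcodes had 240.2 CPM and control epithelial barcodes 23.5 CPM, so the epithelial level was also higher in the mutant library. The part of epithelial RNA in the endothelial Cd36 level was not tested. Endothelial barcodes held 62.6% of Cd36 UMIs in the mutant library and 60.7% in the control library. Thinned shares were 54.5% in mutant and 12.05% in control endothelial barcodes (81.1% and 37.6% unthinned). In mesenchymal barcodes, taken as the background for Cd36, they were 1.12% in the mutant library and 0.853% in the control library.

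Fabp4 encodes a cytosolic fatty acid carrier (chr3:10204088-10208576, minus strand). Fabp4 had 2856 UMIs (138 CPM) in mutant endothelial barcodes and 335 UMIs (16.2 CPM) in control ones, a fold of 8.50 (interval 7.59 to 9.55). In the mutant library it was the most unevenly spread of the 10 genes. There 10.96% of endothelial barcodes had a Fabp4 UMI and the top 5% of barcodes held 92.5% of its UMIs, with up to 159 in 1 barcode. In the control library 3.55% had a UMI and the top 5% held all of them, with up to 97 in 1 barcode. For comparison, the top 5% held 15.9% of Cd93 UMIs in the mutant library and 35.6% in the control library. The interval of the Fabp4 fold does not cover its uneven spread, so the fold is less certain than that interval. Thinned shares were 6.61% in mutant and 1.38% in control endothelial barcodes, and 0.123% and 0 in epithelial ones. Fabp4 also occurred in mesenchymal barcodes, at 12.04 CPM in the mutant library and 8.63 CPM in the control library.

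Of 13 other listed genes of fatty acid uptake, 9 reached 10 CPM, 1 was at least 2-fold higher in the mutant library, 1 was at least 2-fold lower, and the median log2 difference was 0.19. Pparg, a transcription factor that activates fatty acid genes, had 17.4 CPM in the mutant library and 2.81 CPM in the control library. Relative to genes of like intron length its log2 difference was 0.21, so it passed the limit only before that adjustment. Tcf15, which drives fatty acid transporter genes together with Meox2 in endothelium, had 21.2 CPM in the mutant library and 53.7 CPM in the control library. Lpl, the lipase that GPIHBP1 carries, had 51.0 CPM in the mutant library and 21.4 CPM in the control library, and Fabp5, a relative of Fabp4, had 347 and 175 CPM. Their log2 differences of 0.96 and 0.95 were just under the limit. Relative to genes of like intron length, Lpl (1.21) and Fabp5 (1.42) were over it and Tcf15 (-0.57) was not past it.

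Tmem100 encodes a small membrane protein that BMP9 induces through the receptor ALK1 in arterial endothelium (chr11:90030348-90036508, plus strand). It had 2075 UMIs (100.1 CPM) in mutant endothelial barcodes and 580 UMIs (28.1 CPM) in control ones, a fold of 3.57 (interval 3.25 to 3.92). Thinned shares were 16.5% in the mutant library and 6.37% in the control library (33.4% and 13.9% unthinned), and 0.185% and 0.360% in epithelial barcodes. Of the 10 genes it was the least restricted to endothelium in the control library. Control endothelial barcodes held 40.2% of its mouse UMIs, with 28.1 CPM there and 23.6 CPM in control mesenchymal barcodes. In the mutant library endothelium held 75.7%, with 13.4 CPM in mesenchymal barcodes. Among 12 measured genes of BMP9 and ALK1 signalling, 2 were at least 2-fold higher in the mutant library and 1 was lower, with a median of 0.28. The higher genes were the receptors Tgfbr2 (155 CPM in the mutant library and 58.4 in the control library) and Bmpr2 (259 and 106 CPM), and neither passed relative to genes of like intron length. The lower gene was Id2, a target of BMP signals, with 46.8 CPM in the mutant library and 149 CPM in the control library. Acvrl1, which encodes ALK1 itself, had 360 and 223 CPM.

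Ly6c1 and Ly6a encode small surface proteins held by a lipid anchor, and Ly6a is also known as Sca-1. Both lie on the minus strand of chromosome 15, at chr15:75044018-75048830 and chr15:74994877-74998031, and their coding ends are nearly the same. The last 90 coding bases, stop codon included, are shown 5′ to 3′ from GENCODE vM21 (mm10, minus strand) with capitals where a gene differs from Ly6c1. They are at chr15:75045402-75045491 for Ly6c1, chr15:75108543-75108632 for its neighbour Ly6c2 and chr15:74995262-74995351 for Ly6a.
Ly6c1: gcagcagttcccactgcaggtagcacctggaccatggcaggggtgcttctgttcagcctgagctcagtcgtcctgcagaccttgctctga
Ly6c2: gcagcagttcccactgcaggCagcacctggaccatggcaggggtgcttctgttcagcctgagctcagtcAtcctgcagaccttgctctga
Ly6a: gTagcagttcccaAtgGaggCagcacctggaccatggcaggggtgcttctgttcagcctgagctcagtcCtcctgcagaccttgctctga
Ly6c2 differs from Ly6c1 at 2 of these bases and Ly6a at 5. Ly6c1 and Ly6a extend past these coding bases, and 3' libraries read the end of the transcript. In the last 400 transcript bases, 82 of 351 windows of 50 bases in Ly6c1 also occur in Ly6c2, and none in Ly6a or in the other 8 genes is shared with another gene. The split of reads between Ly6c1 and Ly6c2 is therefore uncertain, while the counts given to Ly6c2 were small, 22 UMIs in mutant and 16 UMIs in control endothelial barcodes.

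Ly6c1 had 5956 UMIs (287 CPM) in mutant endothelial barcodes and 842 UMIs (40.7 CPM) in control ones, a fold of 7.05 (interval 6.56 to 7.59). Ly6a had 2602 UMIs (126 CPM) in the mutant library and 536 UMIs (25.9 CPM) in the control library, a fold of 4.84 (interval 4.41 to 5.32). Thinned shares for Ly6c1 were 38.4% in mutant and 7.49% in control endothelial barcodes, with 1.42% and 0.600% in epithelial ones. Unthinned endothelial shares were 67.4% in the mutant library and 27.3% in the control library for Ly6c1, and 48.3% and 16.9% for Ly6a. Thinned shares for Ly6a were 20.02% in mutant and 5.51% in control endothelial barcodes, with 0.616% and 0.480% in epithelial ones. Of 28 other Ly6 family genes, 4 reached 10 CPM and 2 of these were at least 2-fold higher in the mutant library. They were Ly6e, with 937 CPM in the mutant library and 384 CPM in the control library, and Plaur, which encodes the urokinase receptor, with 134 and 58.5 CPM.

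Cd93 encodes a lectin-like receptor of endothelium that binds the matrix protein MMRN2 (chr2:148436640-148443563, minus strand). It had 10896 UMIs (526 CPM) in mutant endothelial barcodes and 10051 UMIs (486 CPM) in control ones, a fold of 1.08 (interval 1.05 to 1.11). Its log2 difference of 0.11 turned negative in 4 of 16 settings, so no direction is given. Thinned shares were 62.3% in mutant and 59.3% in control endothelial barcodes (91.3% and 78.7% unthinned), and 0.0616% and 0.720% in epithelial ones. Of 8 genes for CD93 partners and related matrix proteins, 1 was at least 2-fold higher in the mutant library. That was Igfbp7, a secreted ligand of CD93, with 341 CPM in the mutant library and 117 CPM in the control library, while Mmrn2 had 68.02 and 70.7 CPM.

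More of the genes stood out from the other barcode classes in the mutant library. In the mutant library 9 of the 10 genes were at least 8-fold higher in endothelial than in epithelial barcodes, where 2.27% of genes were. Against mesenchymal barcodes the count was 7 (1.51% of genes) and against the 67 immune barcodes it was 8 (2.45%). In the control library the count was 3 against each class, where 1.22% (epithelial), 1.03% (mesenchymal) and 1.79% (immune) of genes passed. The 3 were Gpihbp1, Plvap and Cd93 each time. The other 7 had from 1.84 to 69.7 CPM in control endothelium, and at those levels none could reach 8-fold once 10 CPM was added to both sides.

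**Figure D2:**
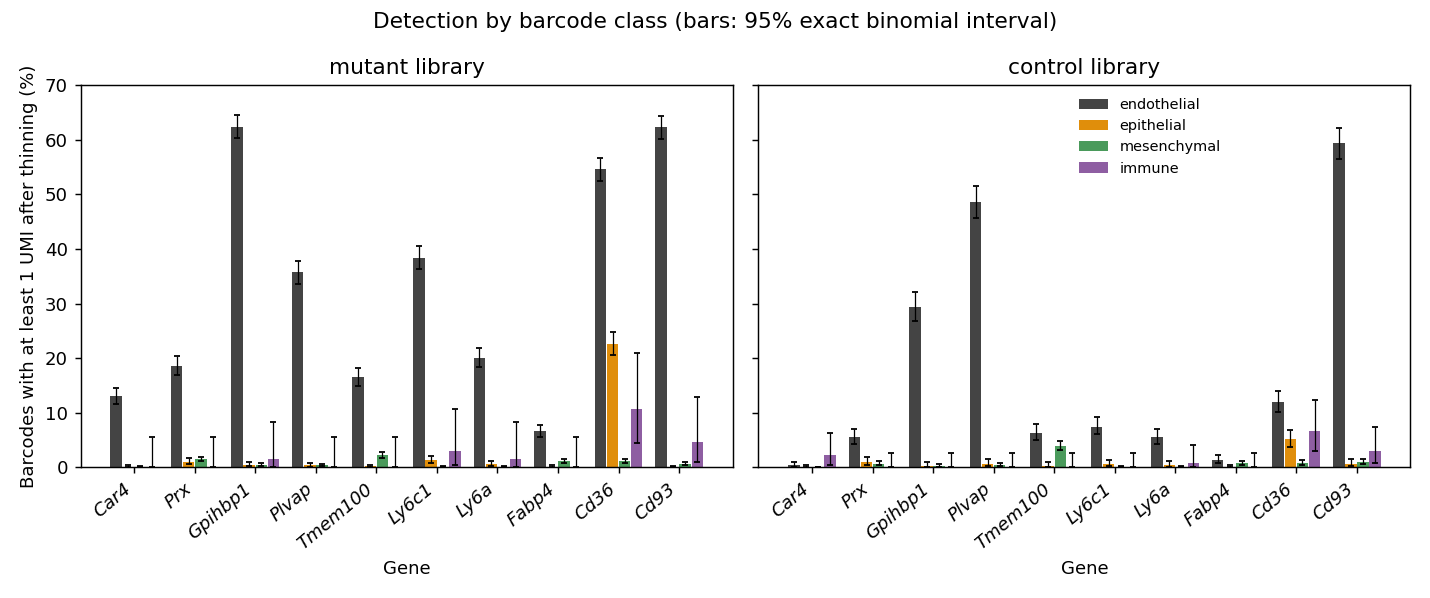
Share of barcodes with at least 1 UMI of each gene after thinning to 2000 mouse UMIs, in endothelial, epithelial, mesenchymal and immune barcodes, for the mutant library (left) and the control library (right), with 95% exact binomial intervals. Endothelial shares exceed the other classes in the mutant panel, Cd36 reaches 22.6% in mutant epithelium, and Car4 is at 0.430% in control endothelium.

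More of the genes were detected per barcode in the mutant library. A thinned mutant endothelial barcode held UMIs of a median of 3 and a mean of 3.28 of the 10 genes, and a control one a median of 2 and a mean of 1.76. None of the 10 was found in 4.50% of mutant and 14.4% of control barcodes. At least 5 were found in 22.2% of mutant barcodes (454) and 1.20% of control barcodes (14). The most found together was 8 in the mutant library and 6 in the control library. The mean is the sum of the single thinned shares given above, which were mostly higher in the mutant library. Whether the genes met more often than those shares give was not tested with these counts.

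**Figure D3:**
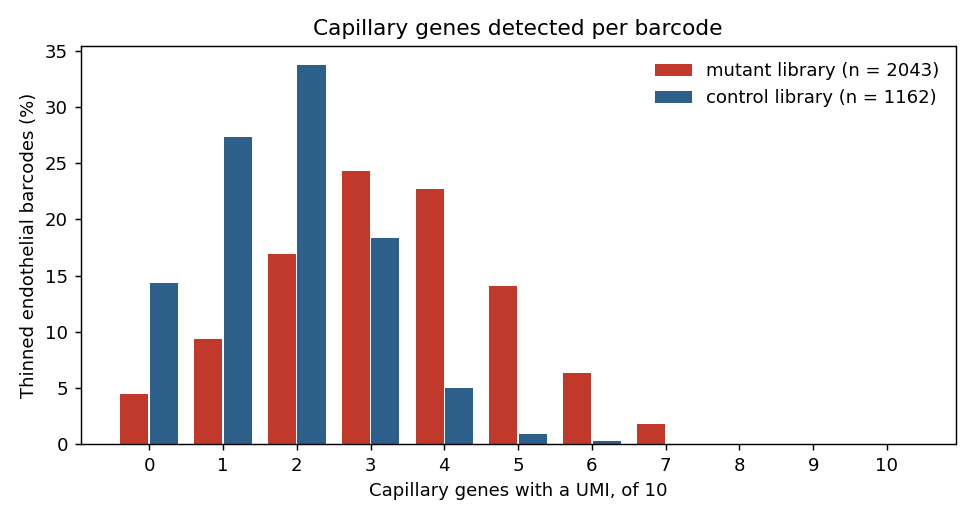
Number of the 10 genes with at least 1 UMI in each thinned endothelial barcode, as a percentage of barcodes, for the mutant library (red, n = 2043) and the control library (blue, n = 1162). The mutant distribution has its median at 3 genes and the control distribution at 2.

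Within the mutant library some pairs of the genes were found together more or less often than their single shares give. The co-detection ratio, the share of thinned barcodes with both genes divided by the product of the single shares, is 1 where detection of one says nothing of the other. Its interval is the binomial interval of the joint share, with the single shares taken as fixed. For common genes this interval is too wide, so one that lies across 1 does not show that detection was independent. Of 45 pairs in the mutant library, the interval lay above 1 for 19, below 1 for 7 and across 1 for 19. Pairs of other genes were not counted in either library, so such counts have no background beside them. Car4 and Prx had the highest ratio, 2.35 (interval 1.95 to 2.80), with Prx in 43.8% of barcodes with Car4 and 14.9% of those without. Car4 was also found with Tmem100 (ratio 2.31, interval 1.89 to 2.79) and Ly6a (1.72, interval 1.39 to 2.10). Outside the 10 genes it was found with Ednrb, the endothelin receptor that marks aerocytes (2.12, interval 1.80 to 2.49).

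Car4 and Plvap tended to exclude each other. They were found together in 29 mutant barcodes, a ratio of 0.304 (interval 0.204 to 0.435), with Plvap in 10.9% of barcodes with Car4 and 39.5% of those without. The exclusion deepened with the Car4 count. Plvap was detected in 39.5% of 1776 barcodes with no Car4 UMI, 18.5% of 124 with 1 and 4.20% of 143 with 2 or more. Prx went the other way over the same steps (14.9%, 40.3% and 46.9%), as did Tmem100 (13.3%, 30.6% and 44.8%) and Ednrb (20.8%, 43.5% and 61.5%). Aplnr, the apelin receptor of general capillary cells, declined with Plvap (22.0%, 11.3% and 7.69%). Fabp4 and Car4 met in 3 barcodes (ratio 0.170, interval 0.0351 to 0.496), and Prx with Fabp4 had the lowest ratio of all pairs, 0.159 (interval 0.0433 to 0.406).

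Car4 and Gpihbp1 are the customary labels of aerocytes and general capillary cells. They were found together in 149 mutant barcodes, a ratio of 0.895 (interval 0.761 to 1.04). Gpihbp1 was in 55.8% of barcodes with Car4 and 63.3% of those without. The interval of the ratio lay wholly below 1 in 5 of 15 other settings. The lowest ratio was 0.776 (interval 0.641 to 0.931), in barcodes with at most 10% mitochondrial UMIs. Whether this wide interval covered 1 therefore depended on the setting. Gpihbp1 was detected in 63.3%, 53.2% and 58.0% of barcodes with 0, 1 and 2 or more Car4 UMIs. Cd36 lay between, at 56.6%, 49.2% and 33.6% (ratio with Car4 0.749, interval 0.618 to 0.898). Plvap was in turn found with Fabp4 (1.66, interval 1.32 to 2.05), Gpihbp1 (1.16, interval 1.08 to 1.25) and Aplnr (1.29, interval 1.12 to 1.47).

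These pairings could be read only in part in the control library. Car4 was in 5 thinned control barcodes, 3 of them with Gpihbp1, so its ratio of 2.04 has an interval of 0.422 to 5.96. Without thinning, 28 control barcodes held both, with a ratio of 1.70 (interval 1.13 to 2.45). Depth was not equalised there, with quartiles of 3203 and 16047 mouse UMIs, and deep barcodes detect more of both genes. The part of depth in that ratio was not tested. Of 45 pairs, 19 had at least 10 barcodes expected with both genes, and the interval lay above 1 for 1, below 1 for 1 and across 1 for 17. The pair above 1 was Plvap with Cd93 (1.12, interval 1.03 to 1.22). The pair below 1 was Gpihbp1 with Tmem100 (0.507, interval 0.253 to 0.903), whose ratio in the mutant library was 0.897 (interval 0.778 to 1.03). Tmem100 was in 14.8% of mutant barcodes with Gpihbp1 and 19.4% of those without. Ly6c1 and Ly6a were found together in 200 mutant barcodes (1.27, interval 1.11 to 1.45) and 12 control barcodes (2.50, interval 1.30 to 4.36).

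**Figure D4:**
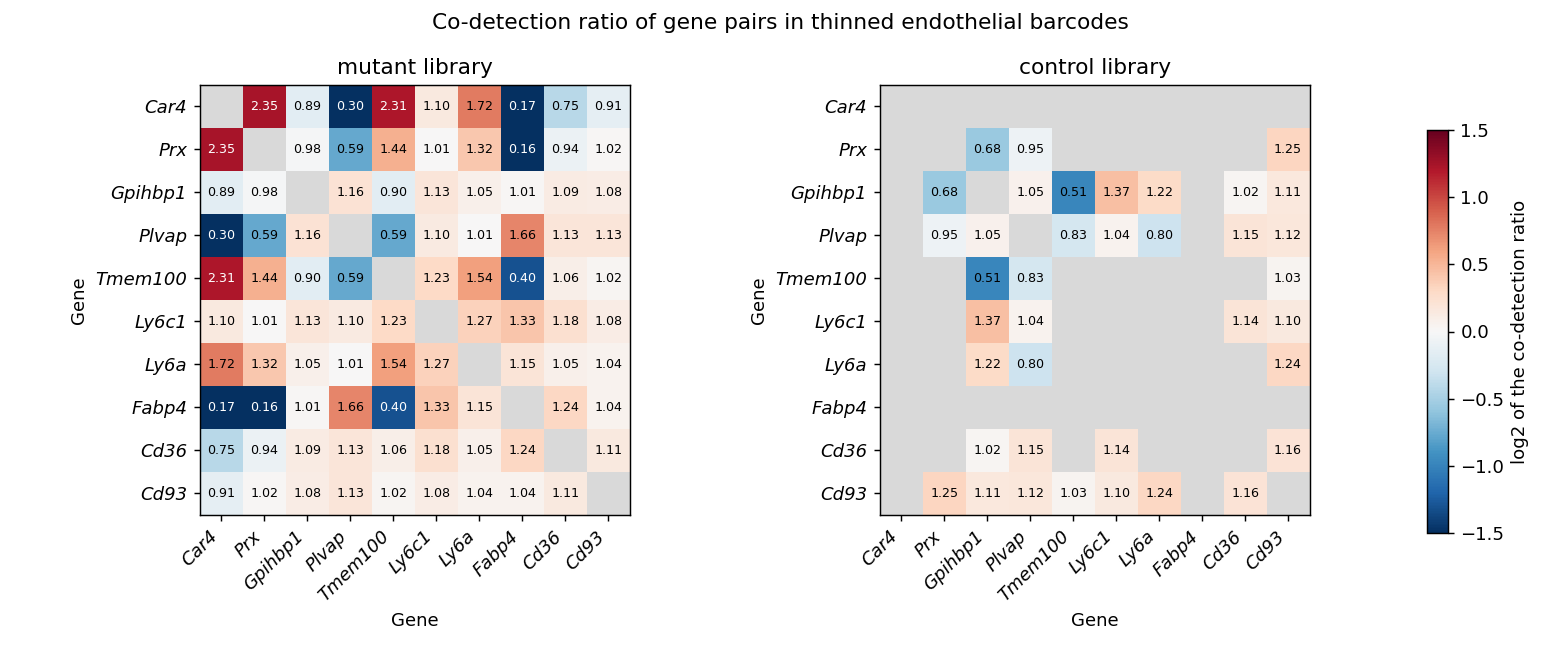
Co-detection ratio of each pair of genes in thinned endothelial barcodes of the mutant library (left) and the control library (right), with the ratio written in each cell and its log2 as colour (red above 1, blue below 1). Grey cells are the diagonal and pairs with fewer than 10 barcodes expected with both genes, and the Car4 row of the mutant panel runs from 2.35 with Prx to 0.170 with Fabp4.

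Endothelial barcodes were next grouped by vessel markers that include none of the 10 genes. A barcode joined the type with the largest summed markers, at 3 or more UMIs. The sums were not scaled for the level of each marker, and the groups are not calls of a cell type. Clec1a, a general capillary marker, was detected in 88.2% of mutant and 69.3% of control endothelial barcodes, so that group is broad. In the mutant and control libraries this gave 213 and 37 barcodes led by aerocyte markers (Ednrb, Apln, Fibin, Tbx2, Chst1 and Cyp1b1) and 1440 and 821 led by general capillary markers (Aplnr, Kit, Glp1r, Sema3c and Clec1a). Arterial markers led 148 and 132 barcodes, venous markers 93 and 49, lymphatic markers 19 and 5, and 204 and 280 had no leading type. Several markers differed between the libraries themselves (Ednrb had 194 CPM in the mutant library and 60.9 CPM in the control library), so group sizes are not compared.

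In the mutant library Car4 was highest in aerocyte-marker barcodes (284 CPM), then in general capillary ones (88.3 CPM), with 13.7 CPM in arterial, 13.3 CPM in venous and 0 UMIs in lymphatic ones. The arterial and venous intervals overlapped. Prx had the same order, with 221 CPM in aerocyte-marker and 104 CPM in general capillary barcodes and from 7.39 to 32.3 CPM in arterial, venous and lymphatic ones. The 204 barcodes with no leading type had 102 CPM of Prx. Plvap was the reverse among the capillary groups, with 98.0 CPM in aerocyte-marker and 274 CPM in general capillary barcodes, and 335 CPM in venous ones. Gpihbp1 (374 and 713 CPM), Cd36 (223 and 638 CPM) and Cd93 (311 and 593 CPM) were also lower in aerocyte-marker than in general capillary barcodes. Ly6a differed little between them, at 133 and 125 CPM. By UMI count, the broad general capillary group held 59.6% of Car4 and 65.9% of Prx UMIs of mutant endothelial barcodes. The aerocyte-marker group held 33.0% and 24.0%.

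In the control library the 37 aerocyte-marker barcodes held no Car4 UMI. A floor of 3 counts allows 8.11% of such barcodes with a UMI and 5.30 CPM, and the exact 95% intervals reach 9.49% and 6.52 CPM. These barcodes had a median of 14359 mouse UMIs, against 8828 in mutant aerocyte-marker ones. Cd93 was detected in 24.3% of them after thinning and in 66.1% of control general capillary barcodes. Prx in these barcodes was 221 CPM in the mutant library and 7.07 CPM in the control library. Plvap was 98.0 CPM in the mutant library and 117 CPM in the control library, while in venous-marker barcodes it was 335 and 91.1 CPM. The venous-marker difference was not particular to Plvap. Cd93 there had 349 CPM in the mutant library and 105 CPM in the control library, and Gpihbp1 had 294 and 22.5 CPM. Within general capillary barcodes alone, 8 of the 10 genes were again at least 2-fold higher in the mutant library. The share of all genes past 2-fold is not given for this group, so that count has no background beside it. Car4 had 88.3 CPM in mutant and 2.18 CPM in control general capillary barcodes, and Gpihbp1 had 713 and 199 CPM. Cd93 had 593 CPM in the mutant library and 550.3 CPM in the control library, and Plvap had 274 and 384 CPM.

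Tmem100 and Fabp4 had their highest levels outside the capillary groups in the mutant library, although the capillary groups held 69.5% of endothelial Tmem100 UMIs there and 53.4% of Fabp4 UMIs. They held 27.9% of Tmem100 and 82.1% of Fabp4 UMIs in the control library. The control share of Fabp4 rests on 335 UMIs in 47 barcodes, with up to 97 in 1 barcode. Tmem100 peaked in arterial-marker barcodes of both libraries, at 327 CPM in the mutant library and 149.6 CPM in the control library. General capillary barcodes had 83.0 CPM in the mutant library and 10.1 CPM in the control library. Fabp4 peaked in venous (456 CPM) and lymphatic (391.7 CPM) barcodes of the mutant library, against 98.5 CPM in general capillary ones. Control levels of Fabp4 were 19.3 CPM in general capillary, 8.90 CPM in venous, 5.99 CPM in arterial and 1.77 CPM in aerocyte-marker barcodes. Of the 5 control lymphatic barcodes, 1 held all 14 Fabp4 UMIs (367 CPM). Ly6a in the control library was likewise highest in arterial-marker barcodes, with 78.2 CPM there and 21.0 CPM in general capillary ones.

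**Figure D5:**
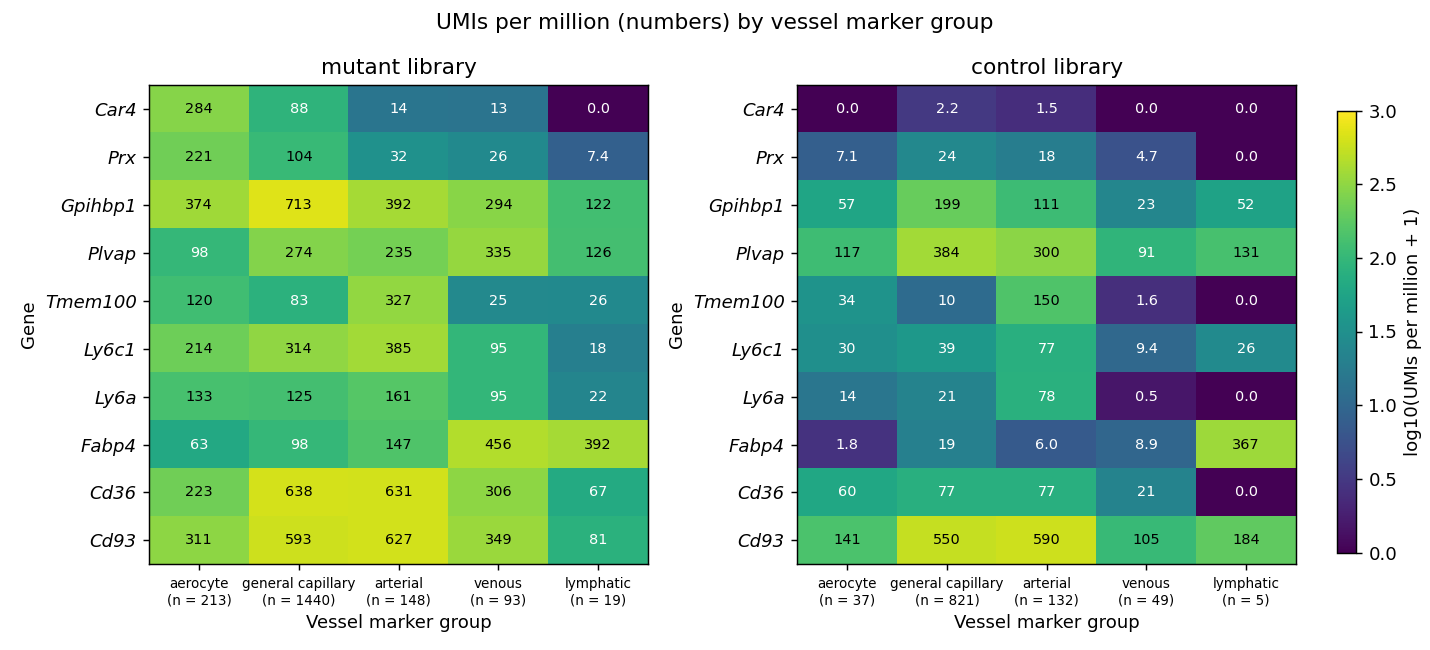
Level of each gene (CPM, written in each cell, colour on a log10 scale after adding 1) in endothelial barcodes grouped by vessel markers that include none of the 10 genes, for the mutant library (left) and the control library (right). Car4 and Prx are highest in the aerocyte column of the mutant panel, Tmem100 in the arterial column of both panels, and Car4 is at 0 in the aerocyte column of the control panel.

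The genes whose counts ran most alike across endothelial barcodes were sought in both libraries at once, by the smaller of the Pearson correlations of log-transformed thinned UMIs over 2043 mutant and 1162 control barcodes. A correlation of 0.2 was reached by only 2 of the 10 genes, out of 8033 genes compared with each. Tmem100 ran with Stmn2 (r = 0.31 in the mutant library and 0.52 in the control library), Cxcl12 (0.25 and 0.57), a chemokine, and Gja4 (0.22 and 0.43), an arterial gap junction gene that is also among the arterial markers used above. Cd93 ran with Pcdh17 (0.20 and 0.26). Barcodes of 1 library share their source and depth is fixed by thinning, so these values are descriptions.

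UMIs of genes of dividing cells were found in fewer mutant than control endothelial barcodes. A UMI of Mki67, Top2a, Birc5, Ube2c, Pclaf or Cdk1 was found in 50.1% of mutant and 81.9% of control endothelial barcodes, and after thinning in 30.7% and 69.2% of them. Of these 6 genes, 3 were at least 2-fold lower in the mutant library. Such a UMI is not a call of a dividing cell, and barcodes with one were deeper than those without, with medians of 9636 and 7193.5 mouse UMIs in the mutant library and 7655 and 3085 in the control library. Among barcodes with no such UMI (1056 mutant and 239 control), 7 of the 10 genes were at least 2-fold higher in the mutant library. No share of all genes is given for these barcodes to set beside that count. Car4 had 139 CPM in mutant and 3.03 CPM in control barcodes of this kind, Gpihbp1 had 619 and 199 CPM, and Prx had 133 and 30.3 CPM. Tmem100 was the exception, with 137 CPM in the mutant library and 82.7 CPM in the control library, a log2 difference of 0.67. Car4 itself was lower in mutant barcodes with a dividing UMI (71.6 CPM) than in those without (139 CPM).

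The gate set a low boundary. Barcodes just inside it, with 4 to 5 gate UMIs, had a Gpihbp1 level of 94.0 CPM in the mutant library (74 barcodes) and 35.2 CPM in the control library (191 barcodes). Those just outside it, with 2 to 3, had 16.5 CPM in the mutant library (259 barcodes) and 10.7 CPM in the control library (398 barcodes). At 4 to 5 gate UMIs the barcodes were shallow, with a median of 2950.5 mouse UMIs in the mutant library and 1924 in the control library.

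Rat copies of the genes could be read in few barcodes. The rat gate used Cdh5 and Cldn5 alone, since no rat feature was named Pecam1, and it passed 0 barcodes in the mutant library and 20 in the control library. In those 20, with a median of 15185 rat UMIs, Plvap had 191 UMIs (319 CPM of rat UMIs) and was found in 12. Rat Prx had 11 UMIs (18.4 CPM), Tmem100 had 5 (8.36 CPM), Gpihbp1 had 2 (3.34 CPM) and Fabp4 had none, for which a floor of 3 counts allows 15% of such barcodes with a UMI and the exact interval reaches 16.8%. Over all barcodes, rat Plvap had 1 UMI in the mutant library and 433 in the control library, and rat Gpihbp1 had 0 and 10. In the same order of libraries, rat Prx had 19 and 55 UMIs, Tmem100 33 and 65, and Fabp4 1 and 50. All rat features together had 1856112 UMIs in the mutant library and 18910529 in the control library. These raw rat counts are therefore not levels, and no direction between the libraries is read from them.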

How the data were processed

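The authors deposited whole-number counts of UMIs for each feature and barcode, which per the file headers came from Cell Ranger 7.0.1 (mutant) and 6.0.1 (control). The submitters' processing notes name mm10, rn6 and Seurat 4.3. Barcodes with at least 500 genes and at most 20% mitochondrial UMIs were kept, and mouse barcodes had at least 90% mouse UMIs. Other classes had at least 4 UMIs of their gate (Epcam, Cdh1 and Nkx2-1; Pdgfra, Pdgfrb and Tcf21; Ptprc, Laptm5 and Coro1a) and fewer than 4 of the endothelial gate. Doublets were not removed. Scrublet, run in Scanpy 1.11.5, marked almost no control barcodes by its own threshold, so a score limit of 0.2 was used as an alternative. UMIs were summed per class and library, and Python 3.11.15, NumPy 2.4.6 and SciPy 1.17.1 were used. Thinning drew 2000 UMIs per barcode without replacement (seed 1) and left out 74 mutant and 162 control endothelial barcodes. No test was possible with 1 library per group. Calls past 2-fold were tested on counts simulated from control endothelial barcodes, and thinning was tested on part of those barcodes. The other steps, such as co-detection and vessel groups, were not tested in this way. All 10 genes are named, list genes by their counts past 2-fold and their extremes, and like genes where r was at least 0.2 in both libraries. The genes, lists and rules were chosen with earlier results of these data known. Intron lengths came from GENCODE vM21, by identifier, for 99.5% of mouse features.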

Additional observations from a re-analysis of the deposited data

How the results depend on the processing

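The number of genes at least 2-fold higher in the mutant library was 8 under every alternative except leaving out barcodes with a dividing marker, where it was 7 (Tmem100), and the number at least 2-fold lower was 0 throughout. The alternatives were other gates, removal of barcodes of another class or with high doublet scores, other limits for species, genes and mitochondrial UMIs, and other pseudocounts, minimum levels, scalings and depths. Shares of all genes past 2-fold are given only for all endothelial barcodes, so counts in other sets of barcodes have no background. The gate on Cldn5 alone and the use of general capillary barcodes alone were chosen after seeing the data. The log2 difference ranged from 3.01 to 5.15 for Car4 and from -0.12 to 0.58 for Cd93. The co-detection ratio of Car4 with Gpihbp1 stayed between 0.776 and 0.981 in the mutant library. Its interval lay below 1 in 5 of these 15 settings and across 1 in the other 10. In the control library it lay above 1 in 2, without thinning, where depth was not equalised, and with a gate of 2 UMIs. Its ratio there was 0 without barcodes with a dividing marker, 0 with the gate on Cldn5 alone and 0 when thinned to 1000 UMIs, and between 0.687 and 3.83 otherwise, since it rests on 5 barcodes with Car4. No paired analysis was possible because each group had 1 library. Levels of a few CPM, such as Car4 in the control library, are limited by counting.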

Other observations

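Over mutant endothelial barcodes alone, a comparison chosen after the values were seen, the thinned counts of Car4 ran most like those of Pmp22 (r = 0.42 over 2043 barcodes), Aff3 (0.40) and Prickle2 (0.39). The same 3 genes led for Prx, with Prickle2 at 0.34, Pmp22 at 0.31 and Aff3 at 0.31. In the control library, where Car4 was in 5 of 1162 thinned barcodes, its correlations with these genes were 0.03 (Pmp22), -0.01 (Aff3) and -0.01 (Prickle2). Barcodes of 1 library are not replicates, and these values are descriptions.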
